A study of Mus musculus with 7 samples.

Results

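The region described here is a stretch of mouse chromosome 1 that holds Sp100, Sp110, Sp140 and a cluster of genes and pseudogenes related to them by sequence. Its members are the H3K9me3 peaks whose deposited start lies between 85 and 88 Mb of chromosome 1 in the mm9 build, 151 of the 23190 WT peaks and 135 of the 3775 KO peaks. The rule used the positions of the peaks themselves, so their number in the window is a description and not a finding. H3K9me3, histone H3 trimethylated at lysine 9, was mapped with ChIP-seq, the sequencing of DNA that comes down with an antibody, on nuclease-digested chromatin. Both lists come from Setdb1 cKO iMEFs, immortalised mouse embryonic fibroblasts of a line that was recloned by dilution and picked for its response, in which 4-hydroxytamoxifen (4OHT) removes the conditional alleles of the H3K9 methyltransferase gene Setdb1. The WT library was made from untreated cells and the KO library from cells given 4OHT for 4 days and harvested on day 7, with 1 library per group. Since WT cells did not receive 4OHT, the loss of Setdb1 and the exposure to 4OHT cannot be told apart. The series holds 7 samples, and the inputs of these cells and the 3 forebrain libraries were not used here. Peak lists carry no expression values, so neither the fibroblast identity nor the loss of Setdb1 was checked against marker genes.

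H3K9me3 is a mark of silent heterochromatin, and Setdb1 is the methyltransferase that places it on many endogenous retroviruses. Sp100, Sp110 and Sp140 belong to the speckled protein family of nuclear, interferon-inducible chromatin readers. Sp100 is a component of PML nuclear bodies, Sp110 is known for control of intracellular bacteria in macrophages, and Sp140 is a transcriptional repressor found mainly in leukocytes. In the mouse these genes sit beside an array of repeated copies of Sp100-like sequence whose length differs between strains and species. A short read from a repeated copy fits more than 1 place, and the authors' alignment put such a read at 1 of them at random.

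Sequences of a pair of peaks are shown first, because many peaks had copies at other places. A KO peak lay in Gm16094, a transcript between the divergent genes Sp110 and Sp140, with a summit pileup (the number of sequenced fragments covering the peak's highest point) of 21. A second KO peak lay in the pseudogene Gm16026, just outside C130026I21Rik, on the other side of an assembly gap, with a pileup of 18. The sequence of chr1:87496289-87496434 on the plus strand and that of chr1:85267933-85268078 on the minus strand had 0 differences over 146 bases, so the same letters stand for both.
KO peaks in Gm16094 and beside C130026I21Rik: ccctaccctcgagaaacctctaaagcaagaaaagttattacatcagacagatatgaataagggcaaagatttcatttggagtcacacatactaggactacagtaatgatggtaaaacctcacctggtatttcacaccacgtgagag
Neither peak overlapped a WT peak.

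A second identical pair held a WT peak without a KO overlap and a KO peak without a WT overlap. The WT peak lay in A530032D15Rik, at chr1:85088684-85088836 on the plus strand, with a pileup of 19, and the KO peak lay across the gap at chr1:87391689-87391841 on the minus strand, with a pileup of 23. Over the 153 bases that both peaks cover there were 0 differences.
WT peak in A530032D15Rik and KO peak across the gap: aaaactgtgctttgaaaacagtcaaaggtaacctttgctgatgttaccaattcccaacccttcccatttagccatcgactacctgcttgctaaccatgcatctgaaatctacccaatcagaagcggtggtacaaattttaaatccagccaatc
By position these are a lost and a KO-only peak, of 166 and 273 bases, and over the 153 aligned bases their sequence is the same. Among pairs of this kind it was picked for sharing the most runs of 31 bases with at most 50 copies in the chromosomes. Such a run was shared with a KO peak by 26 of the 127 WT members without a KO overlap. It was shared with a WT peak by 22 of the 110 KO members without a WT overlap.

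The highest-scoring WT peak without a KO overlap also had its copy under a KO peak. The score of a peak is the −log10 q of the peak caller, and this WT peak, at chr1:85295735-85296244 outside any annotated gene, had a score of 10.3 and a pileup of 24. The KO peak with the most sequence in common with it lay at chr1:85228010-85228554 in C130026I21Rik, with a pileup of 20. The WT list also had a peak at that place, at chr1:85228150-85228724, which overlapped this KO peak by 404 bases. In runs of 31 bases with at most 50 copies, the lost peak shared 207 with that WT peak and 208 with the KO peak. The next lines give 300 aligned bases of each, the WT peak on the plus strand from chr1:85295746-85296045 and the KO peak on the minus strand from chr1:85228255-85228554, with the 6 differing bases in capitals.
highest-scoring lost WT peak: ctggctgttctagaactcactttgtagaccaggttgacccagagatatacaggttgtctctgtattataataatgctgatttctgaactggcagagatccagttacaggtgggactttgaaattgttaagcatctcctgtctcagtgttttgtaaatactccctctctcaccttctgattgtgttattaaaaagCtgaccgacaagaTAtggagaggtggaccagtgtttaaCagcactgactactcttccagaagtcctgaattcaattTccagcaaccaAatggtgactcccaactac
KO peak with its copy: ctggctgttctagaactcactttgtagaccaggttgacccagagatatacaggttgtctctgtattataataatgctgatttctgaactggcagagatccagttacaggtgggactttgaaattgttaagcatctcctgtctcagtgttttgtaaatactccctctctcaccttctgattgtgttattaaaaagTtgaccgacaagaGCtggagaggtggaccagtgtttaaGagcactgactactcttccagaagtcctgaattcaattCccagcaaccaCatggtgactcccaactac
The sequences were 98.0% identical, and all 6 differences lay beyond its middle.

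The highest-scoring KO peak without a WT overlap lay in an intron of Sp140, at chr1:87502832-87503307, with a pileup of 35 and a score of 8.68. It had the highest pileup of the KO peaks in the window. Part of it, chr1:87503195-87503307 on the plus strand, matched chr1:85260419-85260531 on the minus strand in C130026I21Rik, under another KO-only peak with a pileup of 25. The 113 aligned bases differed at 2 places, shown in capitals.
KO-only peak in Sp140: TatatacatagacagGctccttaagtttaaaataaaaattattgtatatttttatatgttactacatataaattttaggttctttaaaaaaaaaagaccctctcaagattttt
KO-only peak in C130026I21Rik: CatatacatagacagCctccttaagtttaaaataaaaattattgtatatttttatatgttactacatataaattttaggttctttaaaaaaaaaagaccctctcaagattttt

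A pair of single peaks is shown for their position. The WT peak at chr1:87496880-87497017 covered the annotated start of Sp140, and capitals mark the bases from that start onwards. It had a pileup of 26, a score of 5.34 and no KO overlap, and its sequence had copies elsewhere in the window.
WT peak at the Sp140 start: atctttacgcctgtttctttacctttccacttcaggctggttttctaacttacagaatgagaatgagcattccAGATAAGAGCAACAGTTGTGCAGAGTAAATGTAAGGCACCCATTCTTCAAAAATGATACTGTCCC
The highest-scoring WT peak with a KO overlap lay at chr1:87345807-87346025, just after the gap and outside any annotated gene, and capitals mark the bases it shared with the KO peak.
retained WT peak: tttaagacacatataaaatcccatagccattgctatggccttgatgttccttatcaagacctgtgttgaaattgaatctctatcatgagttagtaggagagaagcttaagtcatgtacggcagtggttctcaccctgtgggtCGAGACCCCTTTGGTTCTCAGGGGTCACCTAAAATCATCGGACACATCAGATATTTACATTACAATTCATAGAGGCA
Its WT pileup was 20 with a score of 10.5, and the KO peak there, at chr1:87345949-87346048, had a pileup of 13 and a score of 3.52.

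The window spans 3 Mb, but mm9 has a gap of 2 Mb in it, so that 1 Mb of sequence was open to reads. The gap runs from chr1:85343679-87343678. Counts of 31-mers, all runs of 31 bases read on both strands, split the rest into 3 segments. In the 344 kb before the gap, 65.2% to 87.6% of the 31-mers of each 20 kb step occurred again in the window, and in the first 216 kb after the gap 63.1% to 86.2% did. In the last 440 kb, which begins inside Sp100, the share per step was 0.590% to 4.32%. The same boundary appeared against the unplaced contigs of the assembly, which held 69.8% to 97.0% of the 31-mers of the segment before the gap, 69.3% to 85.0% of the one after it and 0.830% to 8.92% of the last one.

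Peaks of both lists crowded into the duplicated segments, and the last segment held no KO peak. Before the gap lay 91 WT and 83 KO peaks, or 26.5 and 24.2 per 100 kb. After it lay 50 WT and 52 KO peaks, or 23.1 and 24.0 per 100 kb. The last segment held 10 WT peaks, or 2.27 per 100 kb, and 0 KO peaks. Over the sequenced chromosomes the lists held 0.906 WT and 0.148 KO peaks per 100 kb, and the density in the window is what the rule selected on. At the KO list density a segment of 440 kb would hold few peaks or none, so its lack of KO peaks is not read as a result. The 2 Mb after the window held 7 WT peaks and 1 KO peak. The window held 0.651% of the WT list and 3.58% of the KO list. KO peaks were 89.4% as many as WT peaks in the window against 16.3% over the lists, and their summed length was 77.9% of the WT length (20.3 kb against 26.1 kb) compared with 9.37% over the lists.

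**Figure D1:**
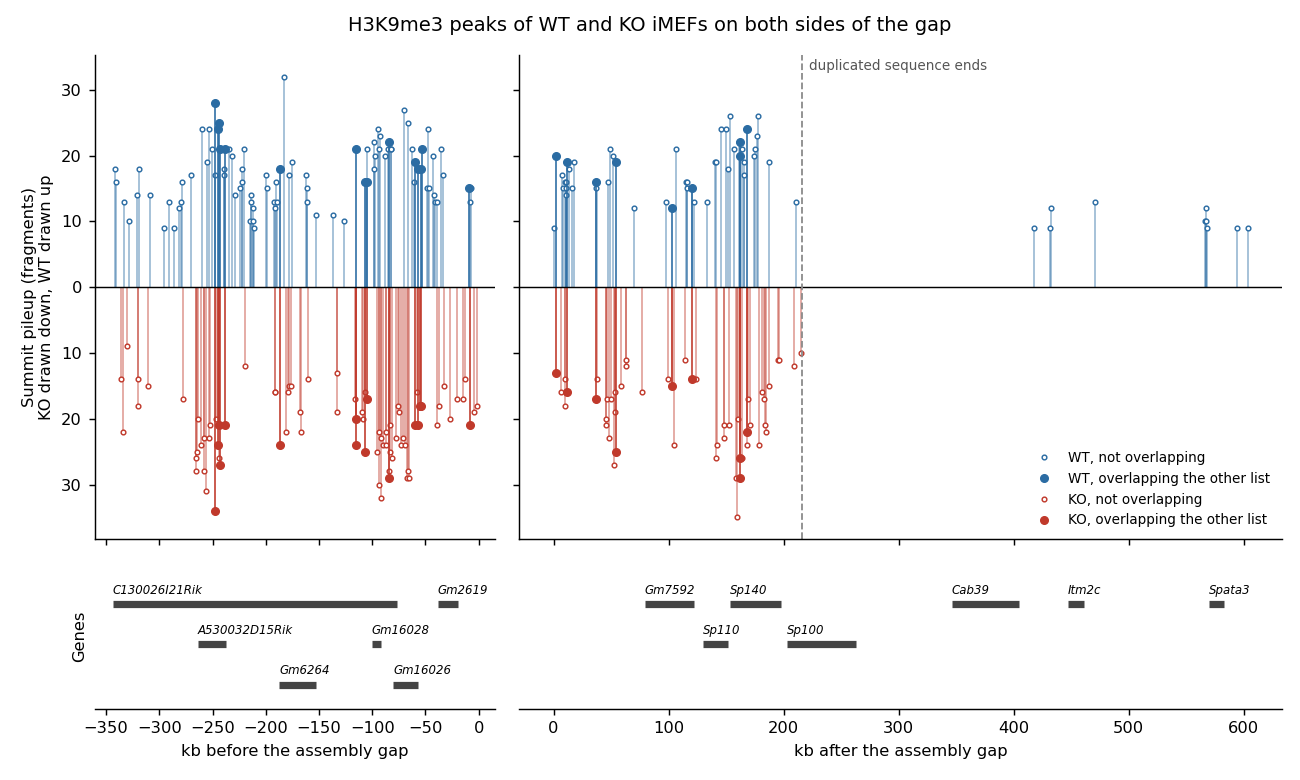
Each stem is 1 H3K9me3 peak at its distance in kb from the assembly gap, with WT pileups drawn up and KO pileups drawn down in fragments. Filled points are peaks that overlap a peak of the other list, bars below are genes, and the dashed line marks the end of the duplicated sequence, beyond which lie 10 WT and 0 KO peaks.

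The last KO peak lay in an intron of Sp100, at chr1:87558429-87558764, with a pileup of 10, and the duplicated steps ended at 87560000. Its sequence is shown because it is the last copy before the last segment. The 215 bases of chr1:87558522-87558736 on the plus strand matched chr1:85311406-85311620 on the minus strand, a KO peak in Gm2619 with a pileup of 15, with 0 differences.
KO peaks in Sp100 and in Gm2619: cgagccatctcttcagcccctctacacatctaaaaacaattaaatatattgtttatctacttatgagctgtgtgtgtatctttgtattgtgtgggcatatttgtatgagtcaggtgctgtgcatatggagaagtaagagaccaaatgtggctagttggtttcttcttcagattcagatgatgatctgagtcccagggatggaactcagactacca
All 10 WT peaks beyond that point had backgrounds of 1.16 to 1.31 fragments and pileups of 9 to 13. Of these, 4 lay one after another just before Spata3, a gene named for spermatogenesis, with pileups of 10, 10, 12 and 9. The single-copy genes Cab39, Itm2c, Gpr55, Psmd1 and Htr2b had no peak of either list.

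Within the duplicated segments the lists were uneven in different places. Of the 29 steps of 20 kb, 12 held more KO than WT peaks, 13 held more WT than KO peaks and 4 held equal numbers. The step with the most KO peaks, 13 beside 8 WT peaks, lay in A530032D15Rik. The step with the most WT peaks, 11 beside 5 KO peaks, lay just after the gap and contained no annotated gene. In 2 steps there was no WT peak and in 2 others no KO peak.

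**Figure D2:**
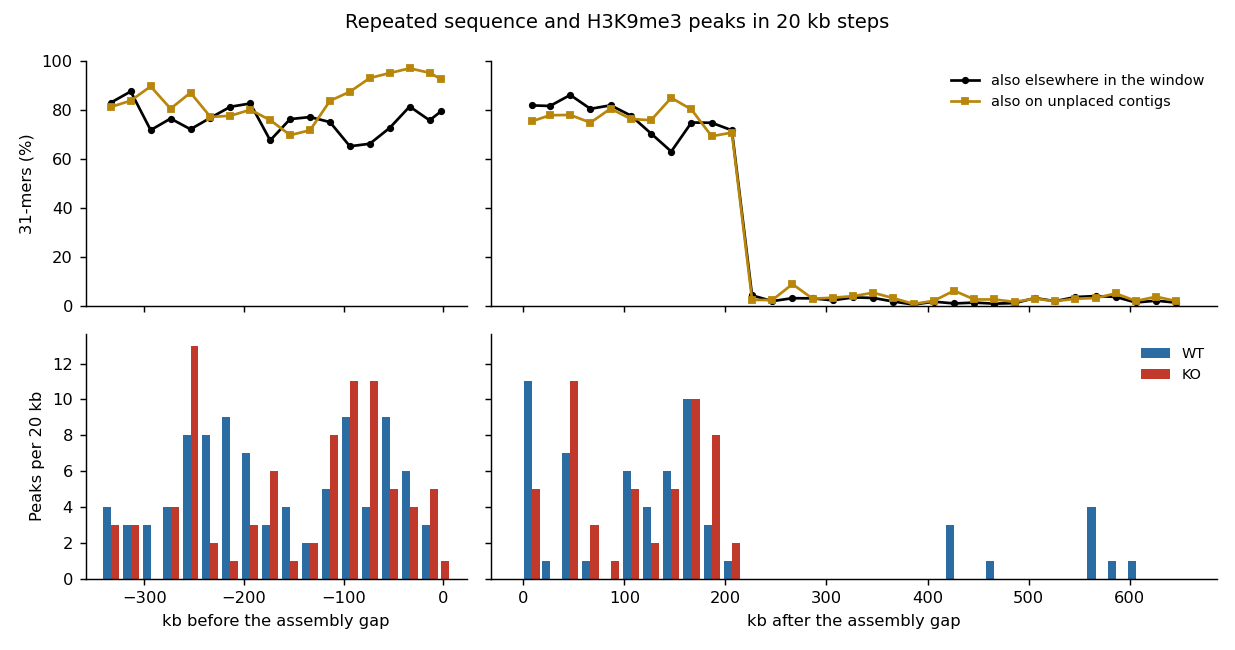
Upper panels give the percentage of 31-mers in each 20 kb step that occur again in the window or on unplaced contigs, and lower panels the number of WT and KO peaks that start in it, by distance in kb from the assembly gap. Both percentages stay below 10% in the last segment, where few or no KO peaks would lie at the density of the list.

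The borders cut the cluster on its left. The first WT peak inside, at 85001496, had a pileup of 18 and the last one outside, at 84997799, a pileup of 13. For KO the first peak inside lay at 85007495 with a pileup of 14 and the last one outside at 84991407 with a pileup of 18. Another 18 WT and 7 KO peaks lay in the 0.1 Mb before the window. On the right the last WT peak inside, at 87947224, had a pileup of 9, and the next one outside lay at 89217058 with a pileup of 13. The last KO peak inside was the Sp100 peak, and the next one outside lay at 89702782 with a pileup of 21.

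Peaks of the window had high pileups on a high local background. The background is the fragment coverage that the caller expected around the peak, recovered from the pileup and the fold enrichment. The WT pileup was 9 to 32 with a median of 17, against a median of 10 over the WT list, and the KO pileup was 9 to 35 with a median of 20, against 10. A pileup of at least 15 was found in 106 WT members (70.2%) against 8.28% of the list, and in 115 KO members (85.2%) against 19.7%. The WT background was 1.16 to 9.20 fragments with a median of 3.54, and the KO background 1.07 to 11.2 with a median of 4.19, while the list medians were 1.21 and 1.08. A background over 3 fragments was found in 89 WT members (58.9%) against 4.04% of the list, and in 106 KO members (78.5%) against 17.3%.

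The fold enrichment, the ratio of pileup to background with 1 added to each, was below that of the lists. Its median was 3.84 in WT members and 4.63 over the WT list, and 3.66 in KO members and 4.84 over the KO list. The median score, 3.05 in WT and 3.23 in KO members, lay close to the list medians of 3.04 and 2.96. Peaks were narrow, with a median width of 129 bp for WT members and of 128 bp for KO members, and 22 WT and 10 KO peaks were wider than 300 bp. The widest of each list lay at 1 place in C130026I21Rik, where a WT peak of 574 bp and a KO peak of 544 bp overlapped.

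**Figure D3:**
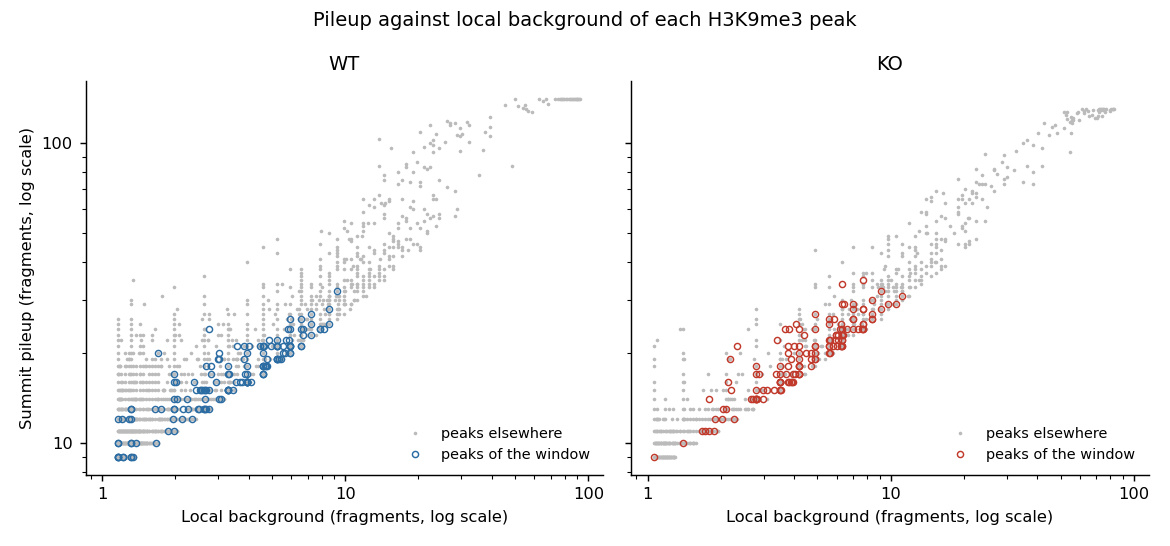
Each point is 1 peak, with its summit pileup against its local background in fragments on log axes, for WT and KO. Peaks of the window (open circles) span backgrounds of 1.16 to 9.20 in WT and 1.07 to 11.2 in KO, and small points are all other peaks.

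The median background of the window's peaks was higher in KO than in WT, although the lowest background of the KO list was lower. The KO median was 1.18 times the WT median, and the lowest values of the lists, 1.07 and 1.16, had a ratio of 0.921. These medians compare peaks that lay mostly at different places. With the last segment left out, the WT median was 3.84 and the KO median 4.19. In the 25 overlapping pairs described below the medians were 4.60 in WT and 4.19 in KO. Within those pairs, however, the median ratio of KO to WT background was 1.04, with KO higher in 14 and lower in 11. The depths of the libraries are not part of the lists, and with 1 library per group the difference has no replicate check. Before the gap the median background was 3.59 in WT and 4.89 in KO, and in the duplicated segment after it 3.94 in WT and 3.79 in KO, so the excess did not appear on both sides.

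Few of the peaks lay at the same place in both lists. A KO overlap of at least 1 bp was found for 24 of the 151 WT members, or 15.9% (Wilson 95% interval 10.9 to 22.6), against 2.42% over the WT list. A WT overlap was found for 25 of the 135 KO members, or 18.5% (12.9 to 25.9), against 16.1% over the KO list, which lies inside the interval. The intervals cover counting error only, and the peaks of 1 library are not replicates. The density of peaks, on which the rule selected, moves with these shares, and its part in them was not tested. The overlaps came to 3023 bases, 11.6% of the WT length and 14.9% of the KO length in the window. The WT share was 16.5% before the gap (15 of 91) and 18.0% after it (9 of 50), and the KO share 19.3% (16 of 83) and 17.3% (9 of 52).

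Split by background, the window lay above the lists in some classes and below them in others. At a background over 5 fragments, 11 of 40 WT members (27.5%, 16.1 to 42.8) overlapped a KO peak against 44.8% of such peaks over the list, and 9 of 55 KO members (16.4%, 8.86 to 28.3) overlapped a WT peak against 58.2%. Between 3 and 5 fragments the shares were 9 of 49 (18.4%, 9.98 to 31.4) against 13.8% in WT and 12 of 51 (23.5%, 14.0 to 36.8) against 29.6% in KO. At 3 fragments or less 4 of 62 WT members (6.45%, 2.54 to 15.4) overlapped a KO peak against 1.09%, and here the interval lay above the list value. In the same range 4 of 29 KO members (13.8%, 5.50 to 30.6) overlapped a WT peak against 8.78%. For both lists the interval over 5 fragments lay below the list value, and the intervals of the other classes, apart from WT at 3 fragments or less, contained it. The class over 5 fragments has no upper bound. Members reached 9.20 in WT and 11.2 in KO, while the lists reached 92.0 and 83.1, so this class is not matched for background. The list values include the members themselves, and the density of peaks in the window moves with all these shares.

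Many members had a peak of the other list nearby. A KO peak lay within 1 kb of 72 WT members, or 47.7% (39.9 to 55.6), against 5.86% over the list. A WT peak lay within 1 kb of 77 KO members, or 57.0% (48.6 to 65.1), against 29.8%. These counts include the overlapping peaks. The density of peaks, 23.1 to 26.5 per 100 kb in the duplicated segments for WT and KO alike, moves with these shares, and its part in them was not tested.

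Among the WT peaks without a KO overlap, the next scores after the one shown were 6.76 and 6.37. The first of these, at chr1:85144015-85144178 in C130026I21Rik with a pileup of 17, lay on sequence of 1255 copies. The other, at chr1:85111546-85111650 with a pileup of 20, lay 244 bp from the annotated start of the pseudogene Gm16038 on sequence of 3 copies. Among the WT peaks with a KO overlap, the next was at chr1:85105562-85105660, 364 bp from a start of A530032D15Rik, with a score of 5.48. Its pileup was 21 in WT and 21 in KO. The one after, the widest WT peak at chr1:85228150-85228724, had a score of 5.15 and a pileup of 21, and it overlapped 2 KO peaks with pileups of 20 and 24. The highest score among KO members, 10.3, belonged to a peak with a pileup of 34 at chr1:85095568-85095870 in A530032D15Rik, where the WT peak had a pileup of 28 and a score of 3.58.

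The overlapping peaks formed 25 pairs. The KO pileup was the higher one in 15 pairs, the lower one in 7 and equal in 3, and the median ratio of KO to WT pileup was 1.11. Among the 592 overlapping pairs elsewhere in the genome the KO pileup was higher in 89 and lower in 435, with a median ratio of 0.887. The KO background was higher in 14 of the 25 pairs and lower in 11, with a median ratio of 1.04 against 0.921 elsewhere. Its median over the pairs was 4.19, against 4.60 in WT. Pileups and backgrounds were not scaled for depth, and the pairs of 1 window share their libraries and much of their sequence, so no test was made.

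**Figure D4:**
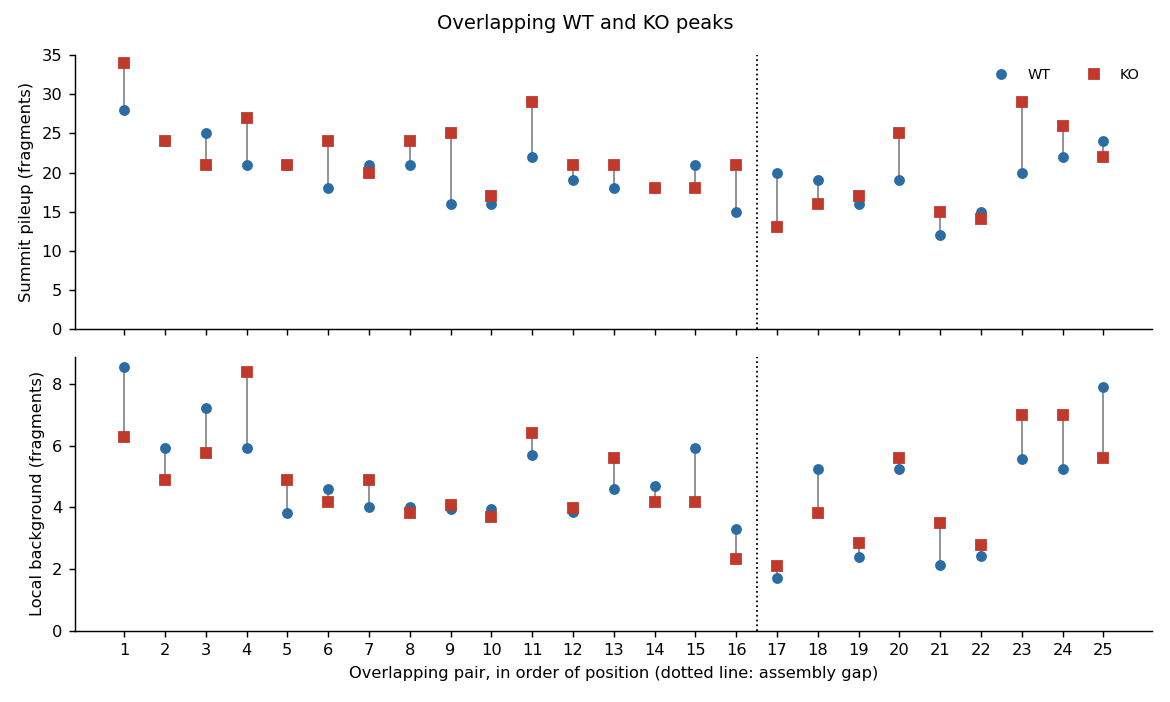
For each of the 25 overlapping pairs, in order of position, circles give the WT and squares the KO value of the summit pileup (upper panel) and the local background (lower panel), in fragments. The KO pileup lies above the WT pileup in 15 pairs and below it in 7.

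A530032D15Rik, a protein-coding gene of the cluster with no assigned role here, held 5 of the pairs. Their WT pileups were 28, 24, 25, 21 and 21, and the KO pileups at the same places were 34, 24, 21, 27 and 21. The ranges overlapped, and the KO pileup was higher in 2, lower in 1 and equal in 2. The longer of its 2 gene models held 12 WT and 15 KO peaks in all, with backgrounds of 3.82 to 8.55 fragments in WT and 4.68 to 11.2 in KO. Of the KO peaks 3 covered an exon, and 0 of the WT peaks did. A530040E14Rik, which overlaps its start on the other strand, held 4 WT peaks and 1 KO peak, some of which are counted under both genes.

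Sp140 was the speckled protein gene with the most peaks. It held 14 WT peaks with pileups of 17 to 26 and 18 KO peaks with pileups of 11 to 35, and 3 of each overlapped. The medians were 21 and 21.5 fragments on median backgrounds of 5.78 and 5.59. Promoters of its transcripts, taken as the 2 kb before and the 0.5 kb after a start, held 6 WT and 9 KO peaks. At the start shown above a WT peak had no KO overlap, on sequence with a median of 3 copies in the window and 7 on unplaced contigs. The KO peak at chr1:87507242-87507529 covered another transcript start, of Sp140 or Gm10552. The 3 pairs had WT pileups of 20, 22 and 24 and KO pileups of 29, 26 and 22. The pairs with WT pileups of 20 and 22 lay in promoters of Sp140, and the WT peak with a pileup of 22 also touched an exon. Gm10552, an antisense transcript inside Sp140, shared 5 of the WT and 6 of the KO peaks.

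Sp110 held 6 WT and 4 KO peaks and none of them overlapped, beside shares of 15.9% of WT and 18.5% of KO members in the window. The WT pileups were 13, 19, 19, 24, 24 and 18 and the KO pileups 26, 24, 21 and 23. The KO values lay in the upper part of the WT range or above it. Their backgrounds, 5.87 to 6.59 in KO and 2.68 to 8.19 in WT, also overlapped. Of the KO peaks 2 covered an exon and the other 2 lay 283 and 111 bp from a transcript start. None of the 6 WT peaks covered an exon, and the one at chr1:87495035-87495188 lay 136 bp from a transcript start. Promoters of Sp110 held 2 WT and 3 KO peaks. Of the 31-mers of Sp110, 54.6% occurred again in the window, against 75.4% for Sp140.

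Sp100 itself was nearly free of peaks. Its body held 1 WT peak with a pileup of 13 and 2 KO peaks with pileups of 12 and 10, none in an exon or a promoter. All 3 lay in the first part of the gene, where the duplicated sequence ends, and 17.7% of the 31-mers of the whole gene were repeated in the window. Csprs, a related sequence of Sp100, was not analysed here.

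C130026I21Rik, a protein-coding gene model that spans most of the segment before the gap and reaches across the left border, contained 71 WT and 60 KO peaks inside the window. Of these 10 WT and 11 KO peaks overlapped. The WT pileups were 9 to 32 with a median of 17, and the KO pileups 9 to 34 with a median of 22. Other genes lie within its span, among them A530032D15Rik and the pseudogene Gm6264 (7 WT and 8 KO peaks), so their peaks are counted in both. The highest WT pileup of the window, 32 on a background of 9.20, lay in Gm6264 and had no KO overlap.

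Pseudogenes and noncoding transcripts held peaks of both lists. Gm16026, a pseudogene next to C130026I21Rik, held 6 WT and 12 KO peaks, and a WT peak with a pileup of 27 covered a transcript start of it. Gm7592, after the gap, held 8 WT and 6 KO peaks, one of them the KO-only peak with the second highest score, 8.36 at a pileup of 24 (chr1:87448053-87448129). The third highest KO-only score, 8.29 at a pileup of 19, lay in Gm6264 (chr1:85175619-85175787). Gm16028 held 6 WT and 4 KO peaks. Gm16025 held 3 WT and 4 KO peaks, Gm2619 held 2 and 4, Gm7281 held 3 and 2, and Gm2666 held 1 and 2. Gm16092 and Gm7582 held 1 of each. Gm17017, antisense to the end of Sp140, and Gm16094 held KO peaks alone, 2 and 1. Gm2389, Gm2635, Gm7609 and 2810459M11Rik held 1 WT peak each.

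**Figure D5:**
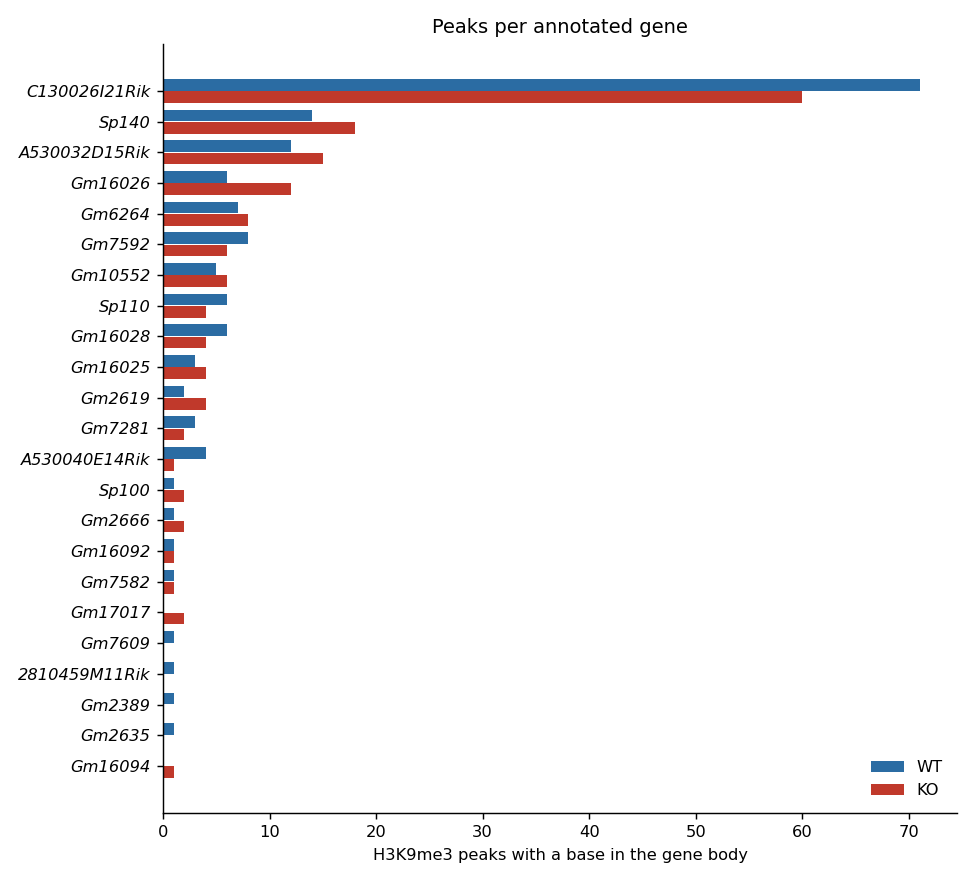
Bars give the number of WT and KO peaks with at least 1 base in the body of each annotated gene of the window, with overlapping genes counted separately. C130026I21Rik, with 71 WT and 60 KO peaks, is followed by Sp140 with 14 and 18 and A530032D15Rik with 12 and 15.

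In all 114 WT members (75.5%, 68.1 to 81.7) and 113 KO members (83.7%, 76.6 to 89.0) lay in annotated genes, against 24.1% and 29.6% of the lists. Gene bodies cover 74.0% of the sequenced bases of the window, 83.0% of the duplicated sequence and 41.3% of the sequenced chromosomes. Promoters held 25 WT members (16.6%, 11.5 to 23.3) and 32 KO members (23.7%, 17.3 to 31.5), against 3.85% and 6.28% of the lists. Exons were touched by 14 WT (9.27%) and 21 KO members (15.6%), against 2.57% and 3.44%. The density of annotated starts and exons in the window was not measured, so its part in these shares was not tested.

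Most members lay on sequence with over 1 and up to 10 copies, a class that was smaller in both lists. The copy number of a peak, the median count of its 31-mers in the mm9 chromosomes, was over 1 and up to 10 for 123 WT members (81.5%, 74.5 to 86.8) and 119 KO members (88.1%, 81.6 to 92.6), against 15.5% and 24.6% of the lists. Single-copy sequence underlay 11 WT (7.28%) and 13 KO members (9.63%), against 28.3% and 56.8%. Sequence of over 1000 copies, as interspersed repeats give, underlay 12 WT members (7.95%) against 35.4% of the WT list and 1 KO member (0.741%) against 7.44% of the KO list. Within the window itself 128 WT and 121 KO members had more than 1 copy. On the unplaced contigs 136 WT members and 133 KO members had a median copy number above 0, against 48.5% and 20.7% of the lists. Neither list names a peak on an unplaced contig. Whether the authors aligned reads to these contigs is not given in the sources used here.

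Copies of 1 sequence carried peaks at several places. Peaks were linked when they lay apart but shared a 31-mer with at most 50 copies in the chromosomes, which gave 122 links among the members, 48 between WT peaks, 46 between a WT and a KO peak and 28 between KO peaks. Of these links 70 crossed the gap, and in 42 of the 70 the copies ran in opposite directions. The links joined 132 of the 286 members into 43 families of 2 to 9 peaks, and 31 families reached both sides of the gap. Families were built for the window alone, so no share over the lists stands beside these counts. Sharing such a 31-mer with another peak of the same list was common elsewhere too, in 42.0% of the WT list against 51.0% of WT members. For KO it was 12.9% of the list against 31.9% of members. In 23 families both WT and KO peaks were present, in 11 WT peaks alone and in 9 KO peaks alone. The largest held 9 peaks, 7 WT and 2 KO, and another of 9 held 5 WT and 4 KO peaks, among them the widest peak of each list and the highest-scoring lost WT peak. The longest match joined 2 lost WT peaks at chr1:85123036-85123482 and chr1:87464113-87464655, with 318 shared 31-mers and pileups of 21 and 15.

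Matches by sequence to the other list were counted as well, and these counts contain the members that overlap by position. A low-copy 31-mer found in some KO peak was present in 50 WT members (33.1%, 26.1 to 41.0) against 7.78% of the list, and one found in some WT peak in 47 KO members (34.8%, 27.3 to 43.2) against 26.7%. Among the 127 WT members without a KO overlap 26 shared such a 31-mer with a KO peak, or 20.5% (14.4 to 28.3), against 5.65% of all WT peaks without an overlap. Among the 110 KO members without a WT overlap 22 did so with a WT peak (interval 13.6% to 28.4%), against 13.4%. With another peak of their own list, 77 WT members (51.0%, 43.1 to 58.8) and 43 KO members (31.9%, 24.6 to 40.1) shared such a 31-mer, against 42.0% and 12.9%. The part of random read placement in where a peak was called was not tested.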

How the data were processed

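H3K9me3 ChIP-seq of WT and KO Setdb1 cKO iMEFs was analysed from the 2 deposited peak lists, 1 library each. The authors aligned single-end reads with Bowtie2 2.2.3 to the mm9 genome, placed reads with several hits at random, removed duplicates with Picard and, per the file headers, called peaks with MACS2 2.1.0.20140616, whose options are not given in the sources used here. The deposited pileup is coverage (signal) in fragments, the deposited fold is the ratio of pileup to local background with 1 added to each, and the deposited p and q values are −log10 values. Total reads are not part of the lists, so the depth of each library could not be computed.

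From these the background was recovered as (pileup + 1) / fold − 1. Overlap required 1 shared bp. Genes, exons and transcript starts came from GENCODE M1 and sequence from NCBIM37, the build of the files. The files do not say if starts count from 0 or 1. Starts are printed as deposited, and sequences were read from that base counted from 1. Copy number was the median count of 31-mers on both strands. Steps of 20 kb were called duplicated when over 50% of their 31-mers recurred in the window. Shares carry Wilson 95% intervals. With 1 library per group and a window chosen for its peaks, no test was made and no p-value is given. The window, the genes and the lists were chosen with earlier results of these data known. Named peaks were the 3 highest-scoring lost, retained and KO-only peaks, the widest of each list and those at the borders, and named genes were the Sp genes and all others touched by a member. Gm16038, Spata3, Cab39, Itm2c, Gpr55, Psmd1 and Htr2b have no peak in their bodies and were named after the values were seen. The peaks shown as sequence, beyond these, and the single peaks with the highest pileup were picked after their values were seen. Overlap and 31-mer code was tested on simulated data. Scripts used Python 3.11.15, biopython 1.88, numba 0.67.0, scipy 1.17.1, matplotlib 3.10.9, pandas 2.3.3 and numpy 2.4.6.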

Additional observations from a re-analysis of the deposited data

How the results depend on the processing

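No paired analysis was possible because there was 1 library per group. Of 38 values recomputed under the alternatives, 24 stayed within 1.5 times a count, within the Wilson interval of a share or within the 95% order-statistic interval of a median, and 14 did not. When only scores from the median of the WT list (3.04) upwards were kept, the window had 78 WT and 78 KO peaks and 12.8% of these KO peaks overlapped a WT peak (7.12 to 22.0) against 22.8% of such peaks over the list, so that the KO share turned from above the list to below it. With 0.5 Mb taken off each end, 36 WT and 32 KO peaks were left, all after the gap, and the median KO background was 3.49. A pileup of at least 15 gave a median WT background of 4.60. With peaks within 1 kb merged, 22.8% of WT intervals overlapped (15.7 to 31.9) against 2.25% over the list, and 26.7% of KO intervals (18.6 to 36.6) against 13.5%, so that the KO share lay above the list beyond its interval. The density of peaks in the window moves with these shares too, and its part in them was not tested. Requiring at least 50% of the peak to be covered gave 9.27% of WT peaks. Counting a peak of the other list within 1 kb gave 47.7% in WT and 57.0% in KO. Counting a shared low-copy 31-mer, an alternative chosen after seeing the data, gave 33.1% and 34.8%. Moving the left border out by 0.1 Mb or leaving out the last segment, both also added after seeing the data, kept all values within these limits. At a pileup of at least 15 the WT share was 19.8% against 16.3% of such WT peaks over the list, and the KO share 19.1% against 46.9%. Pileups reached 32 in WT and 35 in KO members but 140 and 130 over the lists, so these peaks are not matched for pileup. Depth, which the lists do not give, and the lack of replicates limit every comparison between WT and KO, and repeated copies missing from the assembly limit every position.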
